A study of Mus musculus with 20 samples.

Results

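The 9 genes described here are the intracellular effectors and the induced readouts of canonical Wnt signalling in mouse skin: Ctnnb1, Lef1, Tcf7, Tcf7l2, Axin2, Nkd1, Rnf43, Znrf3 and Sp5. They were chosen by name among the 19807 genes of the deposited tables, and all 9 were found once each. The rule used no measured values, but earlier results of these data were known when it was made. RNA was sequenced separately from dermis and epidermis in 20 libraries, 10 of each tissue, with 3 libraries of WT wounds, 3 of Shh wounds and 4 of intact E14.5 skin. WT wounds, the controls, came from animals labelled wild type. Shh wounds came from K14-CreER; LSL-Shh mice, in which tamoxifen lets Cre switch on an Shh transgene in keratin 14-positive epidermal cells. Both kinds of wound were small, came from mice of 4 to 5 weeks of mixed strain background that had all been given tamoxifen, and were taken 2 days after the scab had come off. E14.5 skin came from unwounded embryos, so a wound set against it differs at least in age and injury, and these cannot be told apart. Any difference in tamoxifen, genotype or strain between embryos and wounded mice is part of the same contrast. The study counted more wounds and more mice per condition than there are libraries, so wounds may have been pooled, and which wounds went into which library is not given.

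In canonical Wnt signalling a Wnt ligand binds Frizzled and Lrp receptors, β-catenin (encoded by Ctnnb1) escapes degradation, enters the nucleus and joins DNA-bound TCF/LEF factors (Lef1, Tcf7 and Tcf7l2) to switch on target genes. Several targets act back on the pathway: Axin2 is a scaffold of the complex that degrades β-catenin, Nkd1 binds Dishevelled and dampens the signal, Rnf43 and Znrf3 are membrane ubiquitin ligases that remove Frizzled from the cell surface, and Sp5 is a zinc finger transcription factor that is itself a direct target in embryos. In embryonic skin the pathway is required in both layers for the first hair follicles, and Lef1 marks the placode epithelium and the dermal condensate beneath it.

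Promoter windows were found for 8 of the 9 genes, 15 windows in all, each of 300 bases with 250 before and 50 after an annotated start (RefSeq, build GRCm38.p6). Znrf3 had none. The windows of Sp5, Lef1 and Axin2 are shown because these genes gave the widest contrast among the members in embryonic skin, from a gene nearly absent in wounds to one at a similar level in wound and embryonic dermis. TCF/LEF factors recognise a CTTTG core, most often as CTTTGAT or CTTTGAA. Capitals mark CTTTG on the given strand or CAAAG, its reverse complement, and the 2 further bases of CTTTGAT where it occurs. Lef1 had 4 windows, of which the first is shown.
Sp5 (chr2:70474673-70474972, + strand): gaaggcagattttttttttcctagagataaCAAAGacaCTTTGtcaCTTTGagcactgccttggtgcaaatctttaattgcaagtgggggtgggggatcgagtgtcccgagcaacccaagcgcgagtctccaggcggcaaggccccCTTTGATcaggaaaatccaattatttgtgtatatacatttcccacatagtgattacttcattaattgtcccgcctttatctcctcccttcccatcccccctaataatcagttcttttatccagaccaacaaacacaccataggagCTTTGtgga
Lef1 (chr3:131110047-131110346, + strand): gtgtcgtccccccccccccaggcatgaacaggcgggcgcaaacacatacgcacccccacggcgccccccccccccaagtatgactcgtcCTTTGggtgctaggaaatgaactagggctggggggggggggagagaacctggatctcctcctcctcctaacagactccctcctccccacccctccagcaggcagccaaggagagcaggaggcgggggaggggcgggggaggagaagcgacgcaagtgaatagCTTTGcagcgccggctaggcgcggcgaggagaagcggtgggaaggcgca
Axin2 (chr11:108920099-108920398, + strand): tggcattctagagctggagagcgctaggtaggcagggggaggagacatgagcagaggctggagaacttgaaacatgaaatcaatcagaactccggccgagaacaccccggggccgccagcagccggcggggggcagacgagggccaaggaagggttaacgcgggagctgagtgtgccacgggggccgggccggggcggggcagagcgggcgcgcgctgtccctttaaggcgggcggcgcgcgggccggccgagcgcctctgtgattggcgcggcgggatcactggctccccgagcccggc
The Sp5 window held 5 cores, 1 of them part of the CTTTGAT that begins 104 bases before the start. The Lef1 window held 2 cores and neither 7-base form, and the Axin2 window held no core. Of 32851 promoter windows of this length, 53.9% held CTTTG, 3.73% held CTTTGAT and 5.14% held CTTTGAA on either strand, so a core alone is common. Sp5 was the only member with CTTTGAT in a window, and no member had CTTTGAA. A match describes letters in the window and says nothing of binding.

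Values are CPM, the reads of a gene per 1000000 reads of its library. The gene Mir5105 took 177144 CPM of dermal WT-9229 and 62839 CPM of epidermal WT-9229, against 7073 to 23333 CPM in the other libraries. CPM of all other genes in the WT-9229 libraries is lowered to that extent. Libraries held 1407498 to 3752046 reads in WT dermis, 3920969 to 8002999 in Shh dermis, 2135041 to 7354990 in WT epidermis, 7167771 to 10810590 in Shh epidermis and 15663677 to 18745431 in E14.5 skin, so depth moved with the groups. Shh itself, the gene switched on, was at 7.35 to 10.7 CPM in Shh epidermis against 0 to 1.50 CPM in WT epidermis. The tissues carried their defining markers: 6 fibroblast genes summed to 151563 to 253098 CPM in wound dermis and 364 to 2332 CPM in wound epidermis, while 6 keratinocyte genes summed to 3706 to 7912 CPM in wound epidermis and 366 to 810 CPM in wound dermis. In 4 wound libraries, dermal WT-9229 and Shh-9233 and epidermal WT-9097 and WT-9229, only 11179 to 14178 genes had a read, against 17055 to 19419 in the other 16, and a gene listed at 0 there can be a gene below reach: 3 reads equal 2.13 CPM in dermal WT-9229, 0.563 CPM in epidermal WT-9097 and 1.41 CPM in epidermal WT-9229. In such bulk tissue, fewer cells that use a gene and less of its RNA per cell cannot be told apart.

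**Figure D1:**
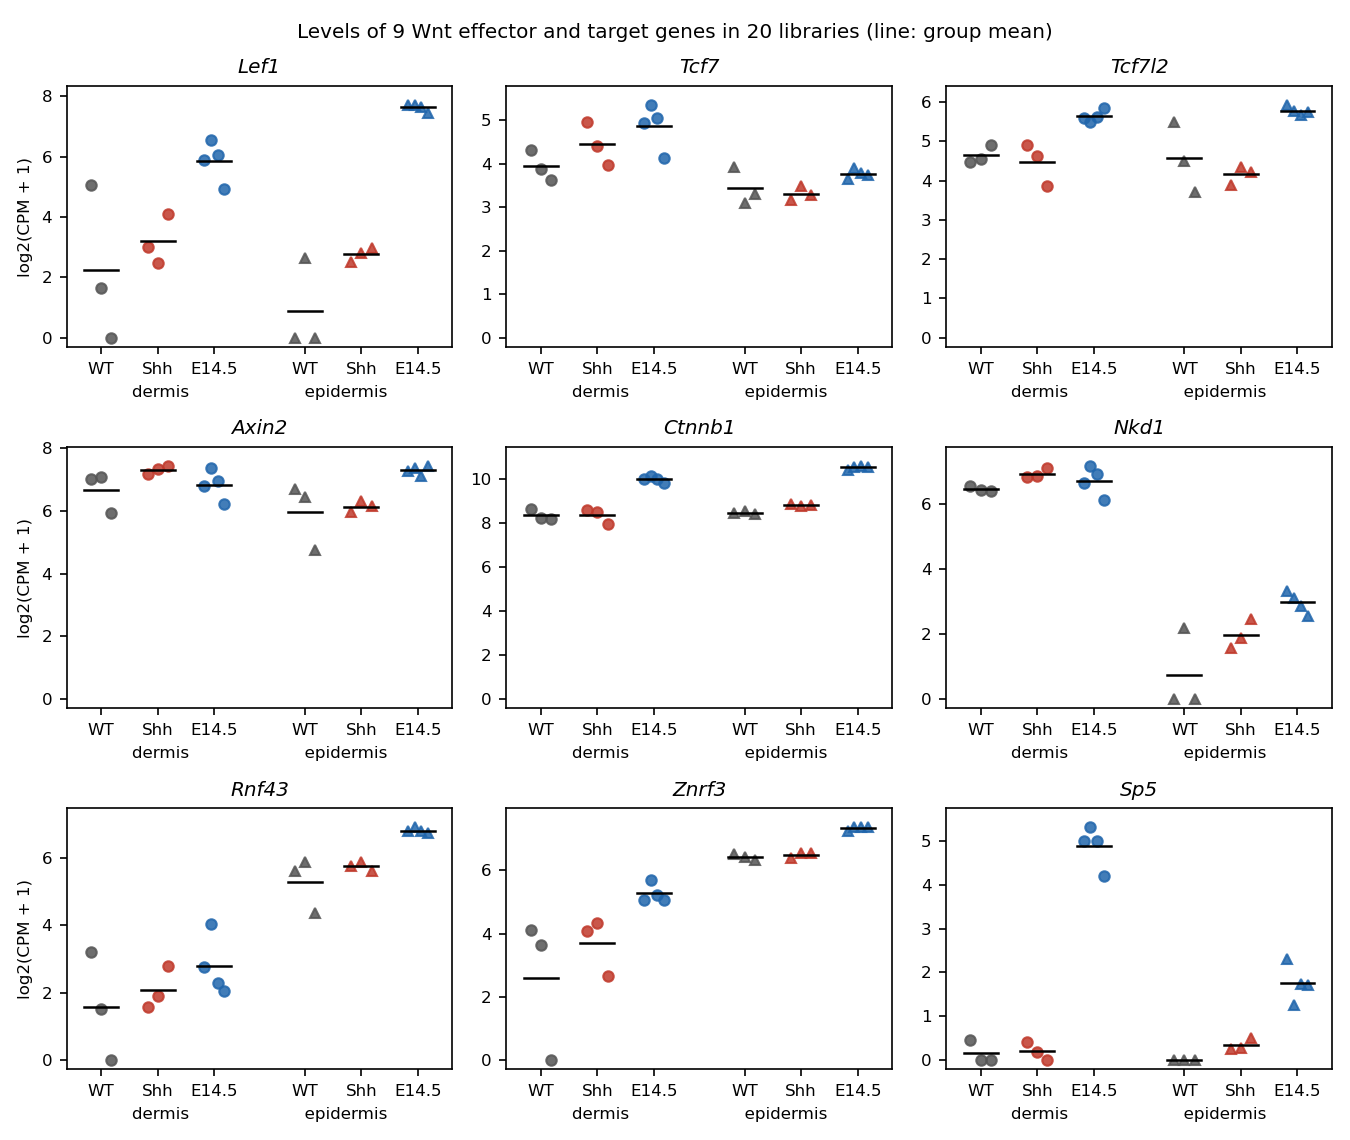
Each panel plots 1 gene, with log2(CPM + 1) on the y axis and the WT, Shh and E14.5 groups of dermis (circles) and epidermis (triangles) on the x axis; points are the 20 libraries and lines are group means. Nkd1 lay at 68.6 CPM or above in all dermal libraries and at 9.07 CPM or below in all epidermal ones, and Sp5 was above 0.419 CPM only in E14.5 skin.

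To compare genes with each other, mean CPM was divided by the length of each gene's merged exons. Ctnnb1 was the most abundant member per kilobase in all 6 groups, from 62.5 CPM per kb in WT dermis to 284 in E14.5 epidermis. In E14.5 epidermis the order below it was Axin2 (28.7 CPM per kb), Lef1 (22.4), Znrf3 (20.5), Rnf43 (17.0), Tcf7l2 (6.14), Tcf7 (4.81), Nkd1 (1.53) and Sp5 (1.18), and the library ranges of only 2 of the 8 neighbouring pairs overlapped, Lef1 with Znrf3 and Nkd1 with Sp5. In E14.5 dermis the order below Ctnnb1 (196) was Nkd1 (23.5 CPM per kb), Axin2 (21.5), Sp5 (14.2), Tcf7 (11.2), Lef1 (6.95), Tcf7l2 (5.59), Znrf3 (4.83) and Rnf43 (1.07), and 6 of the 8 neighbouring pairs overlapped. Lef1 thus had rank 3 per kilobase in E14.5 epidermis and rank 8 in WT epidermis, at 0.201 CPM per kb.

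The 3 feedback inhibitors that act at or near the membrane were divided between the tissues. Nkd1 was a dermal gene in every condition. It was at 93.3, 84.2 and 82.4 CPM in dermal WT-9097, WT-9098 and WT-9229, and at 0, 3.54 and 0 CPM in the same-numbered epidermal libraries. In Shh wounds it was at 113, 114 and 135 CPM in dermis and 1.94, 2.65 and 4.46 CPM in epidermis of Shh-9101, Shh-9231 and Shh-9233. The tissues did not overlap in any condition, and the log2 difference, dermis minus epidermis on the log2(CPM + 1) scale, was 5.72 ± 0.68 (SE) in WT wounds (limma adjusted p = 9.04e-05), 4.97 ± 0.29 in Shh wounds (limma adjusted p = 1.29e-05) and 3.74 ± 0.23 in E14.5 skin (limma adjusted p = 2.21e-07).

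Rnf43 and Znrf3, the pair of Frizzled-removing ligases, had the opposite distribution. Rnf43 was at 48.0, 57.6 and 19.7 CPM in WT epidermis and 8.22, 1.87 and 0 CPM in WT dermis (WT-9097, WT-9098, WT-9229). In Shh wounds it was at 53.3, 57.6 and 48.3 CPM in epidermis against 1.97, 2.75 and 5.87 CPM in dermis (Shh-9101, Shh-9231, Shh-9233). No dermal library reached the lowest epidermal one within a condition. The log2 difference, dermis minus epidermis, was -3.71 ± 0.83 (SE) in WT wounds (limma adjusted p = 0.00685), -3.67 ± 0.36 in Shh wounds (limma adjusted p = 0.000168) and -4.04 ± 0.35 in E14.5 skin (limma adjusted p = 2.42e-06). Dermal Rnf43 was highest in WT-9097 among wounds and in E14.5-4 among embryos (15.4 CPM). E14.5-4 also had the highest sum of the 6 keratinocyte genes in E14.5 dermis, 499.8 CPM against 123 to 177 CPM in the other 3. Dermal WT-9097 did not, with a sum of 696 CPM, below the 781 CPM of WT-9098 and the 810 CPM of Shh-9231. The part of keratinocytes in dermal Rnf43 was not tested.

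Znrf3 was at 90.8, 84.0 and 78.7 CPM in WT epidermis and at 16.4, 11.5 and 0 CPM in WT dermis. In Shh wounds it was at 82.4, 92.8 and 92.1 CPM in epidermis and at 16.1, 19.1 and 5.36 CPM in dermis. Its log2 difference, dermis minus epidermis, was -3.83 ± 0.86 (SE) in WT wounds (limma adjusted p = 0.00728), -2.79 ± 0.42 in Shh wounds and -2.08 ± 0.13 in E14.5 skin, and the tissues again did not overlap. Nkd1, Rnf43 and Znrf3 were the 3 of 9 members called between the tissues of WT wounds, where 23.9% of all genes tested were called. With the 3 WT libraries of few detected genes left out, 1 epidermal library remained, assumed to vary like the dermal ones, and limma called no gene, while 6511 genes and 3 members had an unadjusted p under 0.05. The differences were then 4.31 for Nkd1, -3.51 for Rnf43 and -2.53 for Znrf3.

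**Figure D2:**
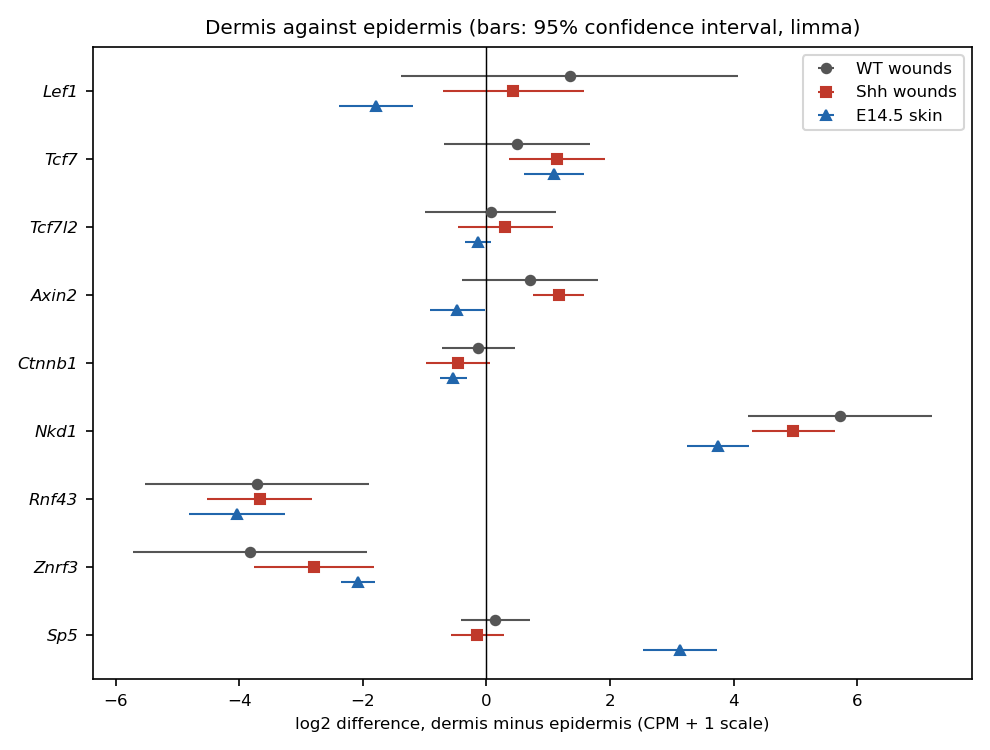
The x axis gives the log2 difference, dermis minus epidermis, for the 9 genes on the y axis in WT wounds (grey circles), Shh wounds (red squares) and E14.5 skin (blue triangles); bars are 95% confidence intervals from limma. Nkd1 lay to the right and Rnf43 and Znrf3 to the left in all 3 conditions, while Sp5 left 0 only in E14.5 skin.

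In Shh wounds 5 of 9 members were called between the tissues, where 33% of all genes were: besides Nkd1, Rnf43 and Znrf3, Axin2 was higher in dermis by 1.17 ± 0.18 on the log2 scale (limma adjusted p = 0.00154) and Tcf7 by 1.14 ± 0.34 (limma adjusted p = 0.0333). Axin2 was at 144, 159.9 and 173 CPM in Shh dermis against 61.1, 78.3 and 70.7 CPM in Shh epidermis. With the animal as a block, Tcf7 no longer passed (limma adjusted p = 0.0526), and it was also lost on leaving out either of dermal Shh-9101 and Shh-9231 or any 1 of the 3 epidermal Shh libraries (limma adjusted p of 0.0775 to 0.107).

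In E14.5 skin 7 of 9 members were called between the tissues, where 67.5% of all genes were, so the number itself was near the background. Sp5 was higher in dermis by 3.14 ± 0.27 on the log2 scale and Tcf7 by 1.10 ± 0.22. Lef1 was lower in dermis by a log2 difference of -1.78 ± 0.27 (limma adjusted p = 0.000177), and Ctnnb1 by -0.54 ± 0.10. Axin2 was lower in E14.5 dermis by -0.47 ± 0.20 and missed the threshold (limma adjusted p = 0.0572), but passed it with the animal as a block (limma adjusted p = 0.0419) and without dermal E14.5-4 (-0.65, limma adjusted p = 0.00462). Tcf7l2 was not called between tissues in any condition. In 1 fit over all 20 libraries, Lef1 was no longer called in E14.5 skin (limma adjusted p = 0.0775).

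β-catenin RNA was higher in embryonic than in wound skin in both tissues. Ctnnb1 was at 391.6, 298 and 284 CPM in dermis of WT-9097, WT-9098 and WT-9229 and at 1023, 1109, 1029.9 and 908 CPM in dermis of E14.5-3, E14.5-4, E14.5-5 and E14.5-7. In epidermis it was at 349, 372 and 335 CPM in WT wounds and at 1365, 1481, 1550.1 and 1501 CPM in E14.5 skin. Every embryonic library exceeded every WT library. The log2 difference was 1.66 ± 0.18 (SE) in dermis (limma adjusted p = 0.000154) and 2.06 ± 0.09 in epidermis (limma adjusted p = 2.47e-06).

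CPM values of a library share 1 total, and the 6 fibroblast genes alone summed to 151563 to 253098 CPM in wound dermis and 16713 to 18498 CPM in E14.5 dermis. In E14.5 skin against WT wounds 49.4% of all dermal genes and 47.7% of all epidermal genes were called higher in CPM, with median log2 differences over all genes of 0.78 and 0.66. Rescaling by the trimmed mean of M values (TMM), which sets the bulk of genes level between libraries, lowered log2 differences by a median of 0.67 in dermis and 0.44 in epidermis. Ctnnb1 stayed higher under TMM, by 0.86 ± 0.14 in dermis and 1.53 ± 0.12 in epidermis. In CPM, 6 of 9 members were called higher in dermis (Lef1, Tcf7, Tcf7l2, Ctnnb1, Znrf3 and Sp5) and 8 of 9 in epidermis (all but Tcf7). Under TMM, 2 were called higher in dermis, Ctnnb1 and Sp5, where 25.5% of all genes were, and 6 in epidermis, Lef1, Ctnnb1, Nkd1, Rnf43, Znrf3 and Sp5, where 33.6% were.

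**Figure D3:**
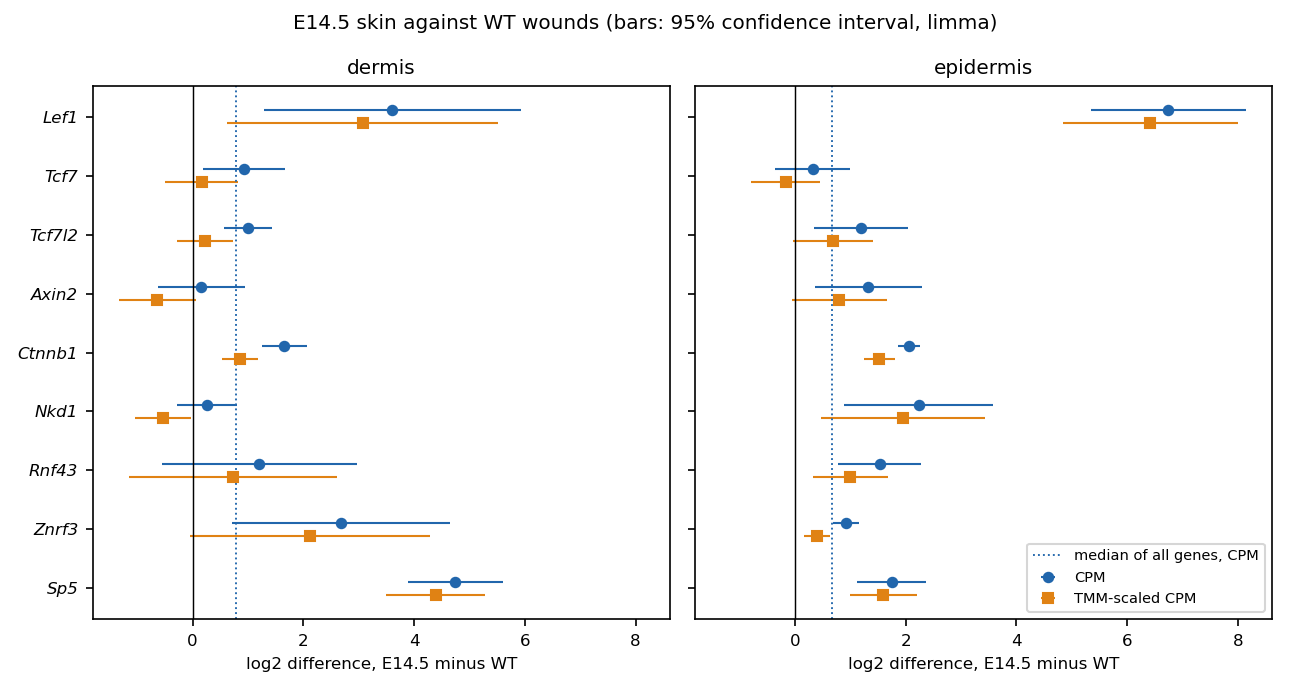
The x axis gives the log2 difference, E14.5 minus WT, of the 9 genes in dermis (left) and epidermis (right), in CPM (blue circles) and after TMM scaling (orange squares); bars are 95% confidence intervals from limma and the dotted line is the median of all genes in CPM. Lef1 in epidermis (6.74) and Sp5 in dermis (4.74) stood farthest to the right, and Axin2 and Nkd1 in dermis moved from right to left of 0 under TMM.

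Lef1 had the widest epidermal contrast of the 9. It was at 209, 207.5, 199 and 173 CPM in epidermis of E14.5-3, E14.5-4, E14.5-5 and E14.5-7 and at 0, 5.30 and 0 CPM in epidermis of WT-9097, WT-9098 and WT-9229. The groups did not overlap, and the log2 difference was 6.74 ± 0.61 (SE) in CPM (limma adjusted p = 6.58e-05) and 6.42 ± 0.68 under TMM. Of 8 T cell genes, 4 or 5 were detected in each E14.5 epidermal library, with Cd3d, Cd3e and Cd3g at 0, and their sum was 23.6 to 28.5 CPM against 36.5 to 73.6 CPM in WT epidermis. The 6 melanocyte genes, a lineage that also uses Lef1, summed to 81.3 to 117 CPM in E14.5 epidermis against 7.96 to 19.7 CPM in WT epidermis, and 5 placode genes to 187 to 201 CPM against 6.56 to 18.2 CPM. The part of these 3 lists in the Lef1 value was not tested.

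In dermis Lef1 was at 57.5, 92.5, 65.3 and 29.0 CPM in the E14.5 libraries and at 32.5, 2.13 and 0 CPM in WT-9097, WT-9098 and WT-9229. The groups overlapped, since WT-9097 lay above E14.5-7. The log2 difference was 3.61 ± 1.02 in CPM (limma adjusted p = 0.0159) and 3.07 ± 1.07 under TMM (limma adjusted p = 0.0506), and it was not called without WT-9098 (limma adjusted p = 0.0565), nor by edgeR (1.61, edgeR adjusted p = 0.115) or DESeq2 (1.75, DESeq2 adjusted p = 0.281). Dermal WT-9097 also carried 344 CPM of 11 hair shaft and matrix genes, against 0 and 2.67 CPM in the other 2 WT libraries; hair matrix is a known site of Lef1, and the part of these transcripts in the Lef1 value was not tested.

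Neither of the other TCF factors was called under TMM. Tcf7l2 was at 47.5, 43.9, 48.3 and 56.5 CPM in E14.5 dermis against 21.1, 22.4 and 29.1 CPM in WT dermis, with no overlap. Its log2 difference of 0.996 ± 0.19 in CPM (limma adjusted p = 0.00243) became 0.22 ± 0.22 under TMM. Tcf7l2 in epidermis was higher by 1.20 ± 0.37 in CPM (limma adjusted p = 0.0225), was not called under TMM, and was not called without WT-9098, E14.5-3 or E14.5-4 (limma adjusted p of 0.0524 to 0.0652). Tcf7 was at 29.6, 39.8, 31.9 and 16.5 CPM in E14.5 dermis against 19.0, 13.6 and 11.4 CPM in WT dermis. Its log2 difference of 0.93 ± 0.33 (limma adjusted p = 0.0385) was lost in 5 of the 7 fits that left out 1 library, all but those without WT-9097 and without E14.5-7. Tcf7 in epidermis differed by 0.33 ± 0.29, with a 95% interval of -0.35 to 1.003, and was called only without WT-9097 (0.57, limma adjusted p = 0.0385) or without both epidermal WT libraries of few genes (0.68, limma adjusted p = 0.0138).

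Sp5 was close to a gene of the embryo alone in these libraries. It had 2108 reads in the 4 dermal libraries of E14.5 skin, at 31.4, 39.4, 31.0 and 17.4 CPM, and 1 read in the 3 dermal WT libraries together. The ratio of pooled CPM was 238, with an exact 95% counting interval of 42.6 to 9389 that covers counting error only. In epidermis Sp5 had 159 reads in E14.5 skin, at 3.96, 1.39, 2.33 and 2.25 CPM, and none in the 3 WT libraries. Over the pooled WT group 3 reads equal 0.202 CPM, which by read counts alone puts E14.5 skin at least 12.2-fold higher. Epidermal WT-9097 and WT-9229 had few detected genes and can miss a gene. In WT-9098 alone 3 reads equal 0.408 CPM, a higher floor that lowers this bound. The limma log2 differences of 4.74 ± 0.38 in dermis and 1.75 ± 0.27 in epidermis passed the test (limma adjusted p = 4.97e-05 and 0.000909) but depend on the pseudocount, since WT is at or near 0. In both tissues no wound library reached the lowest E14.5 library. E14.5 epidermis also carried 156 to 630 CPM of 6 skeletal muscle genes, against 0 to 0.68 CPM in WT epidermis. The part of such non-epidermal RNA in the epidermal Sp5 value was not tested.

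Axin2, the target most often used as a readout of the pathway, was abundant in wounds. In dermis it was at 129, 136 and 59.7 CPM in WT-9097, WT-9098 and WT-9229 and at 110.5, 166, 123 and 73.6 CPM in E14.5 skin, and the ranges overlapped throughout. The log2 difference, E14.5 minus WT, was 0.16 ± 0.35 in CPM (95% interval -0.63 to 0.95) and turned to -0.64 ± 0.30 under TMM (limma adjusted p = 0.128). Nkd1 was at 98.3, 143, 119 and 68.6 CPM in E14.5 dermis, with 0.26 ± 0.24 in CPM and -0.54 ± 0.22 under TMM (limma adjusted p = 0.0841). Neither gene was called in either scaling, and both lay below the median of all genes. In epidermis Axin2 was at 153, 166, 139 and 174 CPM in E14.5 skin against 104, 86.9 and 26.2 CPM in WT wounds. That difference of 1.33 ± 0.42 (limma adjusted p = 0.025) was not called under TMM (0.80, limma adjusted p = 0.106), nor without E14.5-3, E14.5-4 or E14.5-7 (limma adjusted p of 0.0555 to 0.0594). Without epidermal WT-9229 it was 0.72, and still called.

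The Frizzled ligases and epidermal Nkd1 were called higher in embryonic epidermis in CPM and under TMM, with limits for Znrf3 and Nkd1 given below. The 6 skeletal muscle genes summed to 156 to 630 CPM in E14.5 epidermis against 0 to 0.68 CPM in WT epidermis. Sums of the 6 endothelial genes were 16.5 to 58.7 CPM against 6.25 to 15.5 CPM. Those of the 6 fibroblast genes overlapped, at 356 to 1357 CPM against 364 to 2332 CPM. The part of such non-epidermal RNA in the epidermal Nkd1 value was not tested. Rnf43 was at 109.9, 121, 111 and 105 CPM in E14.5 epidermis, above every WT library, with a log2 difference of 1.53 ± 0.33 (limma adjusted p = 0.00443) and 1.01 ± 0.29 under TMM. Znrf3 was at 151, 165, 166 and 164 CPM, with a log2 difference of 0.93 ± 0.10 (limma adjusted p = 0.00017) and 0.40 ± 0.10 under TMM. The TMM median of all genes was 0.34, so Znrf3 lay close to it. Nkd1 was at 9.07, 7.63, 6.30 and 4.88 CPM in E14.5 epidermis, where the log2 difference of 2.24 ± 0.58 (limma adjusted p = 0.0112) fell to 0.79 and was not called without the 2 WT libraries in which it was at 0. In dermis Znrf3 was at 32.6, 50.7, 36.5 and 32.7 CPM in E14.5 skin, with a log2 difference of 2.68 ± 0.87 (limma adjusted p = 0.0275) that was not called without any 1 of the 4 E14.5 libraries (limma adjusted p of 0.0516 to 0.0709), with a pseudocount of 0.25 or under TMM. Dermal Rnf43 was at 5.76, 15.4, 3.84 and 3.13 CPM, differed by 1.20 ± 0.77, and was called only without WT-9097 (2.02, limma adjusted p = 0.037).

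The 4 dermal libraries of E14.5 skin were not alike in these genes. Of the 9 members, 8 were highest in E14.5-4, all but Tcf7l2, and 7 were lowest in E14.5-7, all but Tcf7l2 and Znrf3. Lef1 ranged from 29.0 to 92.5 CPM and Sp5 from 17.4 to 39.4 CPM between these 2 libraries, while Tcf7l2 ran the other way, from 43.9 CPM in E14.5-4 to 56.5 CPM in E14.5-7. Of all 19620 genes with a read in E14.5 dermis, 13.4% were highest in E14.5-4 and lowest in E14.5-7, against 7 of the 9 members. The same 2 libraries were the ends of the sum of 6 skeletal muscle genes, 1437 CPM in E14.5-4 and 5575 CPM in E14.5-7, against 0 to 24.9 CPM in wound dermis, and of the sums of keratinocyte genes, 499.8 and 123 CPM, and of 5 dermal condensate genes, 151 and 102 CPM. The 5 placode genes summed to 22.8 CPM in E14.5-4 and 6.81 to 7.79 CPM in the other 3. The part of these tissues in the spread was not tested.

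**Figure D4:**
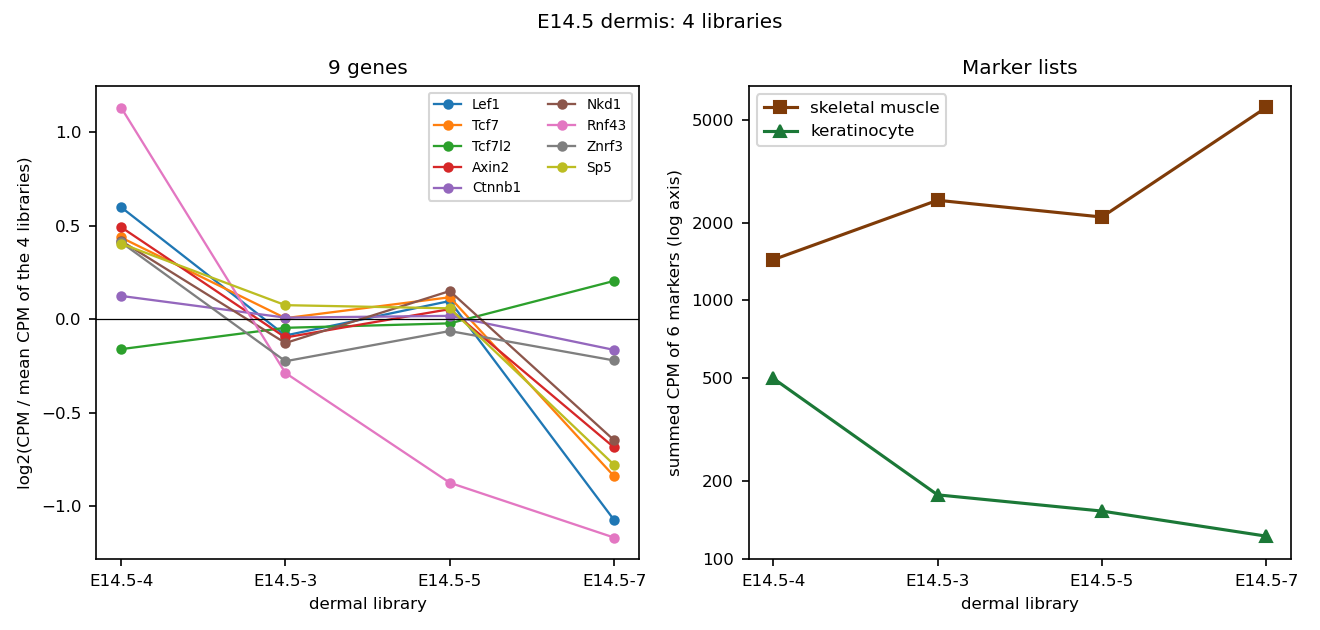
The left panel gives log2(CPM/mean CPM of the 4 libraries) of the 9 genes in the 4 dermal libraries of E14.5 skin, and the right panel the summed CPM of 6 skeletal muscle (brown squares) and 6 keratinocyte (green triangles) genes on a log axis; lines only join the values of a gene or list. E14.5-4 had the highest level of 8 genes and the lowest muscle sum (1437 CPM), and E14.5-7 the lowest level of 7 genes and the highest muscle sum (5575 CPM).

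Shh overexpression was compared with WT wounds to ask whether the Wnt genes change when epidermal Shh is raised. In dermis none of the 9 members was called, and neither was any of 19430 genes (0%) in limma or edgeR, while 546 genes (2.81%) and no member had an unadjusted p under 0.05, and DESeq2 called 11 genes and no member. Axin2 was at 144, 159.9 and 173 CPM in Shh dermis against 129, 136 and 59.7 CPM in WT dermis. Nkd1 was at 113, 114 and 135 CPM against 93.3, 84.2 and 82.4 CPM. These were the 2 members whose groups did not overlap, both higher in Shh dermis, as were 7.74% of all genes. In the same libraries 6 endothelial genes summed to 433 to 629 CPM in Shh against 184 to 345 CPM in WT dermis, and 5 dermal condensate genes to 44.7 to 59.2 CPM against 24.2 to 42.2 CPM, also without overlap, and their part in these values was not tested. Their log2 differences were 0.63 ± 0.33 for Axin2, with a 95% interval of -0.09 to 1.36, and 0.47 ± 0.23 for Nkd1, with an interval of -0.03 to 0.98 (limma adjusted p = 0.958 for both).

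Lef1 in wound dermis varied more within WT than between the groups. It was at 7.05, 4.62 and 16.1 CPM in Shh-9101, Shh-9231 and Shh-9233, within the WT range of 0 to 32.5 CPM. The log2 difference of 0.96 ± 1.20 turned to -0.16 without WT-9229, and the 95% interval of -1.72 to 3.64 spans large changes in either direction. Ctnnb1 differed by 0.01 ± 0.27, with an interval of -0.60 to 0.61. Sp5 had 3 reads in all Shh dermis, so neither wound group gives a level. The other 4 members, Tcf7, Tcf7l2, Rnf43 and Znrf3, differed by -0.18 to 1.11, and all their intervals included 0.

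In Shh epidermis none of the 9 members was called either, and none of 19252 genes (0%) was in limma, while 1846 genes (9.59%) had an unadjusted p under 0.05, Lef1 and Sp5 among them, and edgeR called 6 genes, DESeq2 64 and limma with all groups in 1 fit 148, with no member among them. The limma fit of the 2 groups thus did not call Shh itself, at 7.35 to 10.7 CPM against 0 to 1.50 CPM. A member not called there may still have changed. Lef1 was at 4.62, 6.02 and 6.84 CPM in Shh epidermis and at 0, 5.30 and 0 CPM in WT epidermis, so the groups overlapped. Its log2 difference was 1.87 ± 0.81, with a 95% interval of 0.04 to 3.71 (limma adjusted p = 0.516). The 2 WT libraries at 0 were those with few detected genes. Melanocyte genes summed to 47.0 to 87.8 CPM in Shh epidermis against 7.96 to 19.7 CPM in WT, and placode genes to 20.3 to 23.6 CPM against 6.56 to 18.2 CPM, and their part in these values was not tested. Ctnnb1 was at 456, 429 and 443 CPM against 349, 372 and 335 CPM, a log2 difference of 0.33 ± 0.16, and Sp5 had 7 reads against none. These were the 2 members whose groups did not overlap, again both higher, as were 14.3% of all genes. Sp5 was at only 0.185 to 0.419 CPM in Shh epidermis. In epidermal WT-9098, WT-9097 and WT-9229, 3 reads equal 0.408, 0.563 and 1.41 CPM, so WT libraries could miss Sp5 at that level. Axin2 differed by 0.16 ± 0.44, with an interval of -0.84 to 1.16.

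**Figure D5:**
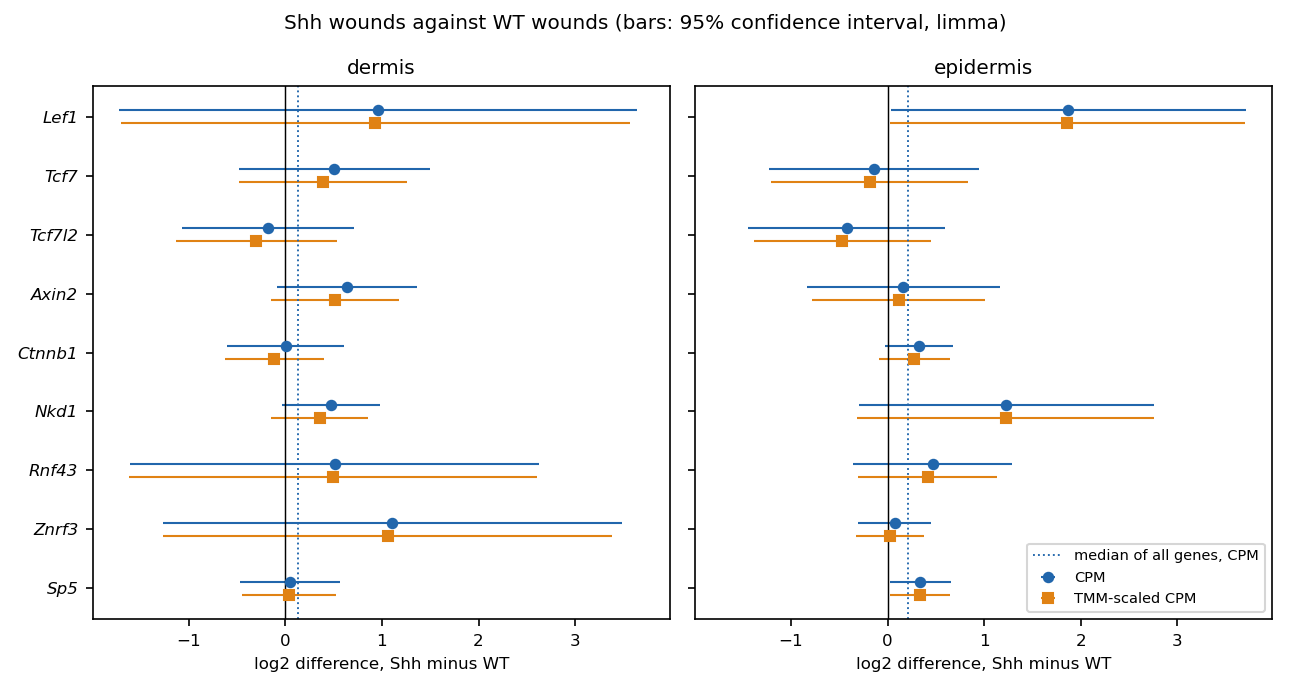
The x axis gives the log2 difference, Shh minus WT, of the 9 genes in dermis (left) and epidermis (right), in CPM (blue circles) and after TMM scaling (orange squares); bars are 95% confidence intervals from limma and the dotted line is the median of all genes in CPM. No member was called, and the intervals of Lef1 were the widest in both tissues.

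Shh wounds were also set against E14.5 skin, in which follicles are forming. This comparison shares its libraries with those above and is no independent test of them. In epidermis 9 of 9 members were called lower in Shh wounds, where 51.7% of all genes were, from -0.46 ± 0.16 for Tcf7 to -4.87 ± 0.13 for Lef1 on the log2 scale (limma adjusted p = 0.0202 and 6.13e-10). Lef1 at 4.62 to 6.84 CPM in Shh epidermis stood far below the 173 to 209 CPM of the embryo. Under TMM 7 were called lower, where 35.7% of all genes were. Nkd1 was then not called, and Tcf7 turned to 0.09 ± 0.15. Both also missed the threshold when WT libraries entered the same fit (limma adjusted p = 0.133 and 0.179), and Tcf7 without E14.5-4 (limma adjusted p = 0.0595). DESeq2 did not call Znrf3 (-0.18, DESeq2 adjusted p = 0.133).

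In dermis 5 of 9 members were called lower in Shh wounds than in E14.5 skin, where 42.5% of all genes were. Lef1 differed by -2.65 ± 0.47, Tcf7l2 by -1.18 ± 0.26, Ctnnb1 by -1.65 ± 0.18, Znrf3 by -1.57 ± 0.40 and Sp5 by -4.70 ± 0.36. Axin2 and Nkd1, in contrast, differed by 0.48 ± 0.25 and 0.22 ± 0.24 and were not called in CPM. Under TMM both were called higher in Shh dermis, Axin2 by 1.12 ± 0.24 (limma adjusted p = 0.00734) and Nkd1 by 0.86 ± 0.23 (limma adjusted p = 0.019), and edgeR and DESeq2 called them higher as well, while Lef1, Ctnnb1 and Sp5 were still called lower and Tcf7l2 and Znrf3 were not. Of all genes 15.1% were higher and 23.7% lower under TMM. In CPM the Axin2 groups overlapped, since E14.5-4 at 166 CPM lay within the Shh range of 144 to 173 CPM, and without that library Axin2 was called in CPM too (0.66, limma adjusted p = 0.0417).

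The levels of 2 genes were also compared within each library, as the log2 ratio of CPM + 1, which for a gene at 0 still depends on the pseudocount and the library's depth. The log2 ratio of Lef1 to Tcf7l2 was 1.71 to 1.99 in the 4 E14.5 epidermal libraries and -5.49 to -1.85 in the 3 WT epidermal ones, a difference of 5.54 (exact permutation test, two-sided, p = 0.0571, the smallest that 3 against 4 allow). In Shh epidermis it was -1.54 to -1.26, above all WT values, a difference of 2.29 (exact permutation p = 0.1, the smallest that 3 against 3 allow). Lef1 had no read in epidermal WT-9097 and WT-9229, which had few detected genes, and their ratios of -5.49 and -3.72 rest on the pseudocount. WT-9098, which had Lef1 reads, was at -1.85. Leaving out any 1 library keeps at least 1 of those at 0. In dermis the ratio differed from WT by 2.61 in E14.5 skin (exact permutation p = 0.229) and by 1.14 in Shh wounds (exact permutation p = 0.5), and the groups overlapped. With a pseudocount of 0.25 the Shh differences became 3.53 in epidermis and 1.82 in dermis. Leaving out 1 library moved the epidermal Shh difference between 1.39 (without WT-9097) and 3.21 (without WT-9098), the dermal E14.5 difference between 1.36 (without WT-9229) and 4.11 (without WT-9097), and the dermal Shh difference between -0.11 (without WT-9229) and 2.64 (without WT-9097).

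The log2 ratio of Axin2 to Ctnnb1 was -2.23 to -1.13 in WT dermis, -1.39 to -0.50 in Shh dermis and -3.61 to -2.73 in E14.5 dermis. Every embryonic library thus had less Axin2 relative to Ctnnb1 than every WT library, with a difference of -1.50 in the mean log2 ratio (exact permutation p = 0.0571), while Shh dermis differed from WT by 0.63 with overlap (exact permutation p = 0.3), and by 0.34 to 0.89 with 1 library left out (the ends without WT-9229 and WT-9098). In epidermis the ratio was -3.47 to -3.10 in E14.5 skin and -3.63 to -1.74 in WT wounds, a difference of -0.73 (exact permutation p = 0.286), and it differed by -0.16 in Shh wounds (exact permutation p = 0.9). Leaving out 1 library moved these between -1.30 (without WT-9229) and -0.36 (without WT-9097), and between -0.74 and 0.21 (without the same libraries). A ratio shows that the 2 genes differed unequally and not which of them did. None of these 8 tests could pass 0.05, and adjusted over all 8 (Benjamini-Hochberg) the smallest p was 0.229.

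The change from WT wound to embryo was itself compared between the tissues. Of the 9 members 2 were called, where 21.2% of all genes were. Sp5 differed more in dermis, by 2.99 ± 0.49 on the log2 scale (limma adjusted p = 0.000514), and Nkd1 more in epidermis, a difference of -1.98 ± 0.63 (limma adjusted p = 0.0374). Both involve libraries at 0. Epidermal Sp5 had no read in WT, and under edgeR, which uses another prior count, its difference turned to -0.66 (edgeR adjusted p = 0.752), with 1.54 in DESeq2 (DESeq2 adjusted p = 0.552). Nkd1 was -0.56 without the libraries with few detected genes (limma adjusted p = 0.369), and it was not called in 10 of the 14 fits that left out 1 library, which gave a limma adjusted p of 0.0557 to 0.0813, nor by edgeR (-2.04, edgeR adjusted p = 0.0715). The tissue difference in the Shh against WT change was called for no member and for none of 19722 genes (0%) in limma or edgeR, with 678 genes (3.44%) and no member at an unadjusted p under 0.05 and 17 genes and no member called by DESeq2.

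Other genes of the pathway were grouped by role, in lists of receptors and R-spondins (22 genes), the destruction complex and cytoplasmic transducers (15), nuclear partners of the TCF factors (14) and other target genes (16). No gene of the 4 lists was called by limma between Shh and WT wounds in either tissue. That holds for all 19430 genes tested in dermis and 19252 in epidermis (0% called), so it says nothing particular to the lists. In E14.5 against WT dermis 14 of 22 receptor genes were higher and 3 lower, with a median log2 difference of 1.16 beside 0.78 for all genes, and under TMM 8 were higher and 4 lower, with medians of 0.39 and 0.26. Over all genes 49.4% were higher in CPM and 25.5% under TMM, and the counts of the 4 lists stand beside these shares. Lgr5, an R-spondin receptor, was lower in E14.5 dermis by a log2 difference of -2.41 ± 0.27, and the Frizzled receptor gene Fzd2 was higher by 1.75 ± 0.20. Of 14 destruction complex genes tested, 8 were higher and none lower in CPM, and 3 were higher and 2 lower under TMM. Of 14 nuclear partners, 10 were higher in CPM, and none was higher and 1 lower under TMM. Of 15 target genes tested, 8 were higher in CPM and 5 higher and 2 lower under TMM, led by the cyclin gene Ccnd1 (2.80 ± 0.21) and the gene of the secreted Wnt inhibitor Wif1 (4.12 ± 0.31).

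In E14.5 against WT epidermis 12 receptor genes were higher and 1 lower in both scalings, with a median of 1.17 beside 0.66 for all genes in CPM. Over all genes 47.7% were higher in CPM and 33.6% under TMM, and the counts that follow stand beside these shares too. Fzd3, another Frizzled gene, was higher by 4.15 ± 0.20. The destruction complex had 9 genes higher and 3 lower (4 and 3 under TMM), with Dvl1, a Dishevelled gene, lower by -0.72 ± 0.12. Of the nuclear partners 10 were higher and 2 lower (6 and 3 under TMM): Bcl9, which encodes a coactivator that binds β-catenin, was higher by 1.78 ± 0.15, and Ctnnbip1, which encodes an inhibitor that binds β-catenin, was lower by -2.17 ± 0.21. Of the targets 9 were higher and 1 lower (7 and 1 under TMM), with Edar, the ectodysplasin receptor gene of the placode, higher by 5.09 ± 0.36 and Prdm1, a repressor of terminally differentiating epidermis, lower by -5.16 ± 0.25.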

How the data were processed

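The deposited tables give CPM (reads of a gene per 1000000) for each library, computed by the authors from HTSeq counts of ribosome-depleted, stranded, paired-end total RNA; the submitters' notes name Bowtie, SAMtools, HTSeq and genome build NCBIM37, with versions not given in the sources used here. CPM of every library sums to 1000000, and 100% of values are whole multiples of 1 read within 0.01, so reads were recovered. Precision follows depth: 1 read equals 0.0533 to 0.71 CPM. The authors' own fold changes and p-values in the same tables were not used, nor was 1 column that belongs to no sample. Tables other than the pair comparing Shh with WT were not used.

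Comparisons used limma 3.58.1 (R 4.3.3) on log2(CPM + 1) with a mean-variance trend, only the 2 groups compared, all genes with at least 1 read, Benjamini-Hochberg adjustment over all of them and a threshold of 0.05, two-sided. Fold changes on this scale understate those of low genes. Alternatives were a pseudocount of 0.25, a mean of at least 1 CPM, no trend, 1 fit over all groups, TMM scaling, totals without Mir5105, edgeR 4.0.16 quasi-likelihood and DESeq2 1.42.0 on recovered reads, each library left out, and the animal as a block. Leaving out the libraries with few detected genes was added after seeing the data. The limma and edgeR fits were tested on simulated counts for Shh against WT epidermis and E14.5 against WT dermis. That simulation used a fixed dispersion and held no libraries of few detected genes, and the other methods were not tested so. Exact permutation tests used SciPy 1.17.1. Exon lengths for CPM per kb are merged GENCODE M21 exons, matched by gene identifier, of a later build than the counts. Promoter windows are from RefSeq.

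Replicates are separate samples by label, and p-values measure the spread between these samples, which may be technical. Sex is not given. The replicate number shared by a dermal and an epidermal library was read as 1 animal, since epidermis and dermis were separated from the same tissue. Deviations from group means of same-numbered libraries correlated at -0.01 to 0.39. Those of differently numbered libraries of a condition correlated at -0.27 to 0.19, so the ranges overlapped. All 9 members were named, list genes by smallest adjusted p (at most 4 a list), and likeness to Axin2 and Lef1 by Pearson r. Members and lists were chosen with earlier results of these data known. Members lie, on NCBIM37, at chr3:130813389-130927274 (Lef1), chr11:52065873-52096681 (Tcf7), chr19:55816300-56008144 (Tcf7l2), chr11:108781663-108812097 (Axin2), chr9:120838334-120869625 (Ctnnb1), chr8:91045243-91118786 (Nkd1), chr11:87476224-87549041 (Rnf43), chr11:5176327-5344850 (Znrf3) and chr2:70312980-70315786 (Sp5), as gene spans.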

Additional observations from a re-analysis of the deposited data

Results flagged for a closer look

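Znrf3 in epidermis was lower in E14.5-3 (151 CPM) than in the other 3 E14.5 libraries (164 to 166 CPM), farther than expected of 4 samples by Dixon's test. This was 1 of 18 groups of 4 tested, and chance marks about 1 in 20.

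The change from WT wound to E14.5 skin differed between the tissues for Sp5 (2.99 on the log2 scale, dermis minus epidermis) and for Nkd1 (-1.98), each by the tissue by condition term in limma. For Sp5 the value depends on how 0 reads in WT epidermis are treated, and the Nkd1 call was lost in 10 of the 14 fits that left out 1 library, from either tissue and from WT or E14.5 skin.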

How the results depend on the processing

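In E14.5 against WT dermis 6 of the 9 members were called in CPM, 2 under TMM, 2 in edgeR and 2 in DESeq2, and 4 to 7 when 1 library was left out. All were higher, as were 9741 of 19732 genes in CPM, 5024 under TMM, 4273 in edgeR and 4945 in DESeq2. In epidermis 8 were called in CPM, 6 under TMM and 5 in both edgeR and DESeq2, and 6 to 9 when 1 library was left out. All were higher, as were 9425 of 19751 genes in CPM, 6638 under TMM, 4834 in edgeR and 5624 in DESeq2. With 1 library left out, 8197 to 10222 genes were higher in dermis and 8122 to 10084 in epidermis. For the tissue difference that follows, 4189 of 19806 genes were called in CPM, 3323 in edgeR and 5219 in DESeq2. The tissue difference in the E14.5 effect was called for 2 members, for 1 in edgeR, for 1 without the libraries with few detected genes, and for 1 to 4 when 1 library was left out. The member called in edgeR was neither Sp5 nor Nkd1, the 2 called in CPM. DESeq2 called 3 members, all with a negative difference, and Sp5 was not among them. Without the libraries with few detected genes, a setting chosen after seeing the data, 0 members were called between the tissues of WT wounds, with 1 epidermal library left. Under every other setting the number called stayed within 1.5 times the reported one, with the 0 of Shh against WT wounds at 0 under all.

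Directions turned mainly where no difference was called; the cause was not tested. In Shh against WT dermis, Lef1 was -0.27 in edgeR, -0.21 in DESeq2, -0.61 without the libraries with few detected genes and -0.16 to 2.37 when 1 library was left out. Ctnnb1 was -0.12 under TMM, -0.092 with Mir5105 out of the total, -0.11 in edgeR, -0.13 in DESeq2 and -0.11 to 0.20 when 1 library was left out. Without the libraries with few detected genes Tcf7l2 was 0.25 and Rnf43 -0.62, and Sp5 was -0.24 in DESeq2. Leaving out 1 library gave -0.41 to 0.12 for Tcf7l2, -0.28 to 1.33 for Rnf43, -0.19 to 1.88 for Znrf3 and -0.062 to 0.19 for Sp5. In Shh against WT epidermis, Axin2 was -0.063 in edgeR and -0.092 in DESeq2, and Znrf3 -0.013 in DESeq2. Without the libraries with few detected genes Axin2 was -0.31, Tcf7 0.22, Nkd1 -0.22 and Rnf43 -0.12. Leaving out 1 library gave -0.44 to 0.53 for Axin2, -0.32 to 0.11 for Tcf7 and -0.85 to 0.040 for Tcf7l2.

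In E14.5 against WT dermis, Axin2 was -0.64 under TMM, -0.67 in edgeR, -0.66 in DESeq2 and -0.22 to 0.36 when 1 library was left out, and Nkd1 was -0.54, -0.50 and -0.50 under the first 3 of these. In E14.5 against WT epidermis, Tcf7 was -0.16 under TMM, -0.20 in edgeR and -0.24 in DESeq2. In Shh wounds against E14.5 skin, Tcf7 was 0.20 under TMM, 0.20 in edgeR and 0.15 in DESeq2 in dermis, and 0.088, 0.097 and 0.17 in epidermis. The Sp5 tissue difference in the E14.5 effect was -0.66 in edgeR. When 1 library was left out, the Lef1 to Tcf7l2 ratio in Shh against WT dermis ranged from -0.11 to 2.64 and the Axin2 to Ctnnb1 ratio in Shh against WT epidermis from -0.74 to 0.21. 2 calls moved with the replicate number as a block: Tcf7 between the tissues of Shh wounds was lost (adjusted p = 0.0526) and Axin2 between those of E14.5 skin was gained (adjusted p = 0.0419). The block left 3, 4 and 8 members called between the tissues of WT wounds, Shh wounds and E14.5 skin, and changed no other member's call. Over all genes it left 4486 of 19354, 6264 of 19685 and 13286 of 19712 called, in the same order. Depth limits Sp5, Lef1 and Nkd1 in WT wounds, where 3 reads equal up to 2.13 CPM.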

Other observations

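The 12374 genes that averaged 5 CPM or more were ranked by the likeness of their pattern over all 20 libraries to that of Axin2 and of Lef1. The levels most like Axin2, as Pearson r of log2(CPM + 1), were those of Zfp316 (r = 0.92), Fto (0.91), Lrig1 (0.91), Rai1 (0.89) and 6330416G13Rik (0.88). Lrig1, a membrane protein that restrains epidermal growth factor receptors, had means of 206, 354 and 301 CPM in WT, Shh and E14.5 dermis and 111, 146 and 303 CPM in the same groups of epidermis. The levels most like Lef1 were those of Dcun1d4 (0.96), Mcat (0.96), Zfp605 (0.95), Stau1 (0.95) and Angel2 (0.95), and Mcat, an enzyme of mitochondrial fatty acid synthesis, was highest in E14.5 epidermis with a mean of 49.7 CPM. No other member was among these. The libraries share groups, depth and total, so these values describe a pattern over 6 groups and carry no test.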
